A study of Homo sapiens with 14 samples.

Results

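The MPP8 knockdown was set against the control guide sgAAVS1 in K562 cells, a long-established line derived from human chronic myeloid leukaemia. The members are 5 of the 14 libraries in the series, taken by their labelled guide: 2 libraries carry a guide against MPP8 (sg1-MPP8 and sg2-MPP8) and 3 carry sgAAVS1, which targets a genomic site used as a neutral location. Cells of every group express dCas9-KRAB, a Cas9 without cutting activity that is fused to a repressor domain and silences the start region of the gene a guide points to (CRISPR interference). A further control is untransduced dCas9-KRAB cells (2 libraries), and the TASOR (2 libraries), TASOR2 (3 libraries) and PPHLN1 (2 libraries) knockdowns are used only to show where MPP8 differs. RNA of transduced cells was collected on day 7, and the sources used here do not say whether the dCas9-KRAB line is a clone or a pool.

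MPP8, the product of the gene MPHOSPH8, is a chromodomain protein that binds histone H3 methylated on lysine 9. It is a core subunit of HUSH, the complex it forms with TASOR and Periphilin (gene PPHLN1), which spreads this repressive mark through the methyltransferase SETDB1 and compacts chromatin through MORC2. HUSH is known for silencing LINE-1 elements, retroviral insertions and other long, intron-poor transcribed units, and the series title names a related complex, HUSH2, in which TASOR2 takes the place of TASOR. Interferon-stimulated genes are antiviral genes that cells switch on when foreign or self nucleic acids are sensed.

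For each gene the authors' values give a mean over each group's libraries, recovered here as log2 RPM (reads scaled to a common library depth). The table holds no single libraries, so the spread between guides and between replicates was not measured and no difference here has a replicate check, an SD or a p-value. The ± beside a log2 difference gives its 95% counting interval, which covers counting error only, at a geometric mean depth per library of 5925746 reads in MPP8, 6202702 reads in sgAAVS1 and 7407039 reads in untransduced cells. A gene was tested when either of the 2 means compared was above 0, and a call, higher or lower, needed log2 means at least 1 apart and a counting interval that left out 0. Of the 35718 genes in the table, 15782 were tested between MPP8 and sgAAVS1. Erythroid markers of the line were present: 46 of 49 genes had means above 0 in MPP8 as in sgAAVS1, including the fetal globin gene HBG1 (6.20 in MPP8 and 6.10 in sgAAVS1). Of 24 megakaryocyte and platelet genes, the other markers of the line, 14 had means above 0 in either group. Of the 24, 10 had no reads in MPP8 and 9 had none in sgAAVS1. Of 20 markers of non-blood tissues, 7 had means above 0 in MPP8 as in sgAAVS1. The hepatocyte gene ALB and the keratinocyte gene KRT5, from the same list, had no reads in either group.

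MPHOSPH8 itself (chromosome 13, 19633681 to 19673459 on hg38, plus strand, protein-coding) was lower in MPP8 than in every other group. Its mean was 4.70 in MPP8, against 6.70 in TASOR, 6.60 in TASOR2, 6.64 in PPHLN1, 6.52 in sgAAVS1 and 6.55 in untransduced cells. The difference was -1.83 ± 0.18 from sgAAVS1 and -1.85 ± 0.18 from untransduced cells, which left 28.2% of the sgAAVS1 level, or 154 reads per library against 570. As RNA came from bulk cultures, fewer cells with the transcript and less transcript per cell cannot be told apart. None of the other subunit genes passed the rule: TASOR (listed as FAM208A) had 7.34 in MPP8 and 7.22 in sgAAVS1, TASOR2 (FAM208B) had 7.86 in MPP8 and 7.45 in sgAAVS1, and PPHLN1 had 6.66 in MPP8 and 6.57 in sgAAVS1. TASOR2 stood out among the subunit genes with a difference of 0.42 ± 0.07 from sgAAVS1, but was only 0.17 ± 0.07 above untransduced cells. Neighbours of MPHOSPH8 did not pass the rule. All 5 tested genes within 500 kb had differences from sgAAVS1 between -0.08 and 0.32, among them PSPC1, a paraspeckle gene next to MPHOSPH8, with 6.64 in MPP8 and 6.53 in sgAAVS1, and the zinc finger gene ZMYM2, with 6.74 in MPP8 and 6.82 in sgAAVS1.

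More genes were higher than lower in the knockdown. Against sgAAVS1, 258 genes were higher (1.63% of 15782) and 44 were lower (0.279%). Against untransduced cells, 191 were higher (1.2% of 15975) and 154 were lower (0.964%). The controls also differed from each other, with 215 genes higher in untransduced than in sgAAVS1 cells (1.36% of 15854) and 36 lower (0.227%), so genes that differed from both controls are given apart. In all, 109 genes were higher than both controls (0.694% of 15709) and 18 were lower than both (0.115%). Of the 149 genes higher than sgAAVS1 but not called against untransduced cells, 47 were also called higher in untransduced than in sgAAVS1 cells. The thrombomodulin gene THBD is the extreme case, with a mean of 3.28 in MPP8, -2.73 in sgAAVS1 and 3.23 in untransduced cells.

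The excess of higher over lower calls depended in part on scaling. On the deposited scale, the tested genes had a median difference of 0.12 from sgAAVS1, and list medians are given beside it. With that median set to 0, the counts were 203 higher and 77 lower, and after quantile normalization they were 186 and 81, beside the 258 and 44 of the deposited scale. Against both controls, 89 and 101 genes were higher under these scalings, and 89 and 93 of them are among the 109. The genes higher than both controls had a median difference of 1.71 from sgAAVS1 (range 1.04 to 3.98), and in 45 of the 109 the MPP8 mean was above 3. In contrast, 17 of the 18 genes lower than both controls had a higher mean below 2, and MPHOSPH8 was the only exception.

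**Figure D1:**
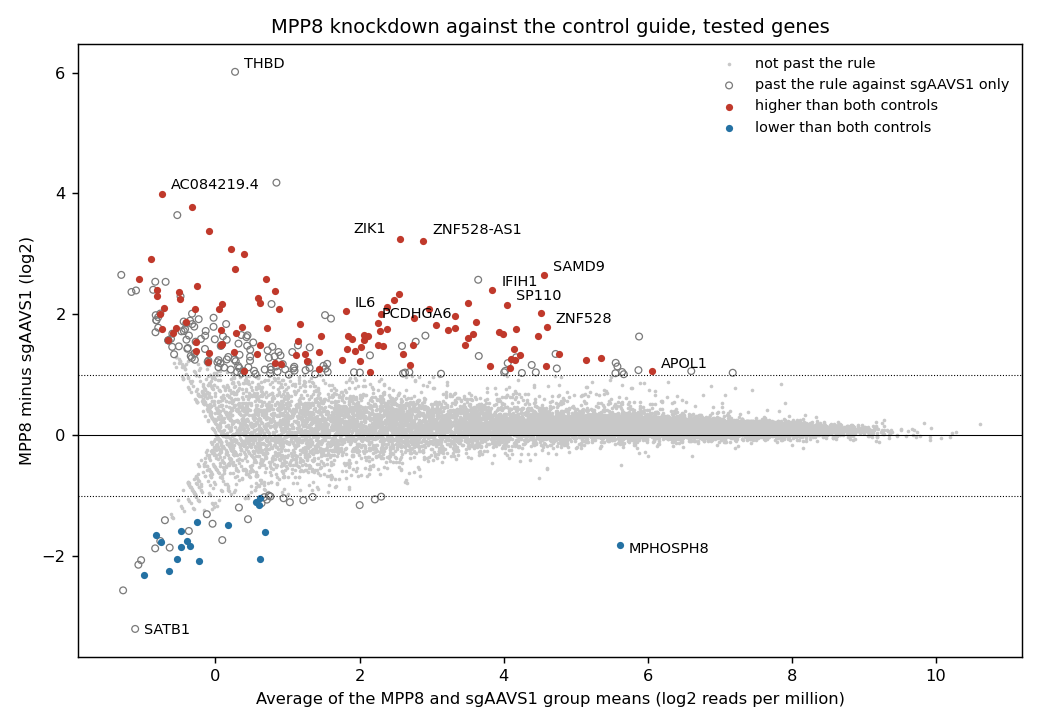
Difference between the MPP8 and sgAAVS1 group means (log2, vertical) against the average of both means (log2 RPM, horizontal) for the tested genes; dotted lines mark differences of 1 and -1. Genes higher than both controls (109, filled red) extend over a wide range of levels, while genes lower than both (18, filled blue) sit at low levels except for MPHOSPH8 at -1.83; open circles are genes past the rule against sgAAVS1 but not against untransduced cells.

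Antiviral effector genes were called higher at a larger share than all genes. Of 71 interferon-stimulated effector genes, 57 were tested, 18 were higher than sgAAVS1, beside 1.63% of all genes, none was lower and 39 were not called. Against both controls 16 were higher, beside 0.694% of all genes, and 9 of them remained with 1 added on the linear scale. The median difference of the 57 was 0.55 from sgAAVS1 and 0.45 from untransduced cells, beside 0.12 and 0.08 for all tested genes, and 52 of the 57 lay above the median of all genes. Between the controls, 1 of 53 tested members was higher in untransduced cells.

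SAMD9, an antiviral factor that restrains poxviruses (chromosome 7, 93099513 to 93118023, minus strand), led the list. Its mean was 5.89 in MPP8, against 4.14 in TASOR, 6.15 in TASOR2, 6.09 in PPHLN1, 3.24 in sgAAVS1 and 3.08 in untransduced cells. That is 351 reads per library in MPP8 and 58.4 in sgAAVS1, a difference of 2.65 ± 0.24, and 2.81 ± 0.28 from untransduced cells. Its neighbour and paralogue SAMD9L was higher too, at 2.83 in MPP8, 0.78 in sgAAVS1 and 0.69 in untransduced cells (2.06 ± 0.61 above sgAAVS1). IFI6, which encodes an interferon-induced membrane protein, had means of 4.60 in MPP8, 2.42 in sgAAVS1 and 2.59 in untransduced cells, a difference of 2.18 ± 0.33 from sgAAVS1. SP110, a nuclear body gene, had 5.11 in MPP8, 2.96 in sgAAVS1 and 3.11 in untransduced cells, which is 2.15 ± 0.28 above sgAAVS1. For SAMD9, IFI6 and SP110 the MPP8 mean was close to those of TASOR2 and PPHLN1, and TASOR lay nearer to the controls (2.94 for IFI6 and 3.49 for SP110).

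Several classical interferon genes passed the rule on few reads. IFIT1, which binds viral RNA, had 0.39 in MPP8, -2.02 in sgAAVS1 and -1.60 in untransduced cells, on 7.75 reads per library in MPP8 and 1.53 in sgAAVS1 (2.40 ± 1.17). MX1, an antiviral GTPase, had 0.34 in MPP8, -1.97 in sgAAVS1 and -1.56 in untransduced cells (2.30 ± 1.19 above sgAAVS1). HERC6, an interferon-induced member of the HERC ubiquitin ligase family, had 1.18 in MPP8, -1.0 in sgAAVS1 and -0.60 in untransduced cells (2.18 ± 1.11 above sgAAVS1). The wide intervals of these genes go with their low counts. On more reads, the apolipoprotein L genes APOL1, APOL2 and APOL3, which lie in 1 cluster on chromosome 22, were all higher than both controls. APOL3 had 4.0 in MPP8 and 1.92 in sgAAVS1 (2.08 ± 0.40), APOL2 had 5.99 in MPP8 and 4.72 in sgAAVS1 (1.27 ± 0.16), and APOL1, whose product lyses trypanosomes, had 6.59 in MPP8 and 5.53 in sgAAVS1 (1.06 ± 0.13). ISG15, a ubiquitin-like modifier, was 1.26 ± 0.25 above sgAAVS1 and 1.03 ± 0.26 above untransduced cells. OAS3 and the death ligand gene TNFSF10 were the list members higher than sgAAVS1 alone. OAS3, a 2'-5'-oligoadenylate synthetase, was 1.14 ± 0.15 above sgAAVS1 and 0.81 ± 0.15 above untransduced cells, while TNFSF10 was 1.25 ± 1.04 above sgAAVS1 and -0.12 ± 0.84 from untransduced cells. Not every member took part: RSAD2 (viperin) had 3.31 in MPP8 and 3.45 in sgAAVS1, and OAS1, OAS2 and IFI44 had no reads in either group.

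Nucleic acid sensor genes had 1 call and interferon signalling genes none, beside 1.63% of all genes higher and 0.279% lower than sgAAVS1. In lists this short such counts are near those shares, and the difference of these lists from the effectors was not tested. Of 16 tested sensing genes, with a median difference of 0.20 from sgAAVS1, 1 was higher, IFIH1, the gene of MDA5, a sensor of double-stranded RNA (chromosome 2, 162267079 to 162318703, minus strand). Its mean was 5.04 in MPP8, 2.84 in TASOR, 5.39 in TASOR2, 5.40 in PPHLN1, 2.64 in sgAAVS1 and 3.16 in untransduced cells. MPP8 was thus 2.40 ± 0.30 above sgAAVS1 and 1.88 ± 0.29 above untransduced cells. GCA, a calcium-binding protein gene that starts within 1 kb of IFIH1 on the opposite strand, was also higher than both controls, on 9.16 reads per library in MPP8 and 2.01 in sgAAVS1 (2.26 ± 1.20). The RNA sensor genes DDX58 (RIG-I) and DHX58 (LGP2) were short of the rule. DDX58 had 3.30 in MPP8 and 2.34 in sgAAVS1 (0.97 ± 0.40), and DHX58 had 4.65 in MPP8 and 3.74 in sgAAVS1 (0.91 ± 0.24). None of the 18 tested interferon signalling genes was called in either direction, and their median difference from sgAAVS1 was 0.12, at that of all genes. IRF9, a transcription factor of the interferon response, had 6.55 in MPP8 and 6.49 in sgAAVS1 (0.06 ± 0.11), and the interferon gene IFNB1 had no reads in MPP8, sgAAVS1 or untransduced cells, where a count of 0 allows up to 3 counts over a group.

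The promoters of these genes are shown because the interferon-stimulated response element is the best known sequence shared by the family. In the RefSeq promoter table (GRCh38.p14; 250 bases before to 50 after each gene's start, a start that can differ from that of the deposited gene model), the core of this element, GAAA then any 2 bases then GAAA, was searched on both strands (on the other strand it reads TTTC, any 2 bases, TTTC). The 250 bases before the start follow, 5′ to 3′ in the direction of the gene, with the fixed bases of each match in capitals: SAMD9 at chr7:93117980-93118229 (minus strand), IFIT1 at chr10:89392373-89392622 (plus strand) and IFIH1 at chr2:162318685-162318934 (minus strand).
SAMD9: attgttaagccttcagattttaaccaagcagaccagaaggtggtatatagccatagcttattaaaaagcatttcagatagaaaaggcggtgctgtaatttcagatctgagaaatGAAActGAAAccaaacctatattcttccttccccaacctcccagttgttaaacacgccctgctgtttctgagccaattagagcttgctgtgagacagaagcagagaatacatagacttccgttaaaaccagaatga
IFIT1: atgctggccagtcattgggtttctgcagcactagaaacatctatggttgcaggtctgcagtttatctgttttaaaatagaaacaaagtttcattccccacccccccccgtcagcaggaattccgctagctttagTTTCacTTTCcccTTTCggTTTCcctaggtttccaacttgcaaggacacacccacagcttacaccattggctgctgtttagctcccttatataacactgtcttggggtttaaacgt
IFIH1: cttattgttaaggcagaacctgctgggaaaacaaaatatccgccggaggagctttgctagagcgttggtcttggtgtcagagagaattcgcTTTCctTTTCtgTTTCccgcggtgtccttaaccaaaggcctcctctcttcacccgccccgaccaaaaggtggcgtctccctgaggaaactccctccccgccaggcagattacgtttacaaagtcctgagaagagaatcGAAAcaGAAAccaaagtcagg
SAMD9 held 1 match, starting at -136 from the gene's start. IFIT1 held 2, at -116 and -103, and IFIH1 held 3, of which the overlapping pair at -159 and -153 shares bases. Of all 27305 gene symbols with a promoter, 4.38% held the core, and 3.84% of the 10924 tested genes with a promoter did. Among effector genes higher than both controls 7 of 10 with a promoter held it (70%), and among tested effector genes not higher than sgAAVS1 it was 21 of 31 (67.7%). Both shares were above that of all promoters, and their difference was not tested. Antigen presentation genes had it in 2 of 6 promoters of those higher than both controls (33.3%) and in 8 of 11 of those tested and not higher than sgAAVS1 (72.7%). Over all genes higher than both controls, 15 of 70 promoters held it (21.4%). A match describes the letters in the window and is not a binding site.

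Of 18 tested antigen presentation genes 6 were higher than sgAAVS1, beside 1.63% of all genes, none was lower and 12 were not called. All 6 were higher than both controls, beside 0.694% of all genes. The median difference of the 18 was 0.32 from sgAAVS1, beside 0.12 for all tested genes. The immunoproteasome subunit genes PSMB8 and PSMB9, whose products shape the peptides shown on class I molecules, had the largest differences of the list. PSMB8 had 3.59 in MPP8, 1.36 in sgAAVS1 and 1.47 in untransduced cells (2.23 ± 0.49 above sgAAVS1), and PSMB9 had 3.44 in MPP8, 1.32 in sgAAVS1 and 1.59 in untransduced cells (2.12 ± 0.50). TAP1, a subunit of the peptide transporter, had 5.76 in MPP8, 4.51 in sgAAVS1 and 4.71 in untransduced cells (1.25 ± 0.18). The gene models of PSMB9 and TAP1 overlap on opposite strands of chromosome 6, and PSMB9 overlaps PSMB8 at its start. The peptide-editing gene TAPBPL was 1.42 ± 0.58 above sgAAVS1, and the class I heavy chain genes HLA-B and HLA-C were 1.16 ± 0.42 and 1.11 ± 0.25 above it. Class I genes are near-identical in parts and the deposited HLA-C model spans HLA-B, so those reads may be shared and their values are uncertain. TAP2, the other transporter subunit gene, had 7.28 in MPP8 and 6.47 in sgAAVS1 (0.81 ± 0.10), and B2M, the class I light chain gene, had 6.82 in MPP8 and 6.64 in sgAAVS1 (0.18 ± 0.10). With the median difference set to 0, or after quantile normalization, 3 of the 6 remained higher than both controls. GIMAP2, an immune-associated GTPase gene and the only tested member of its family, had 3.71 in MPP8, 1.38 in sgAAVS1 and 1.85 in untransduced cells (2.34 ± 0.48 above sgAAVS1).

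**Figure D2:**
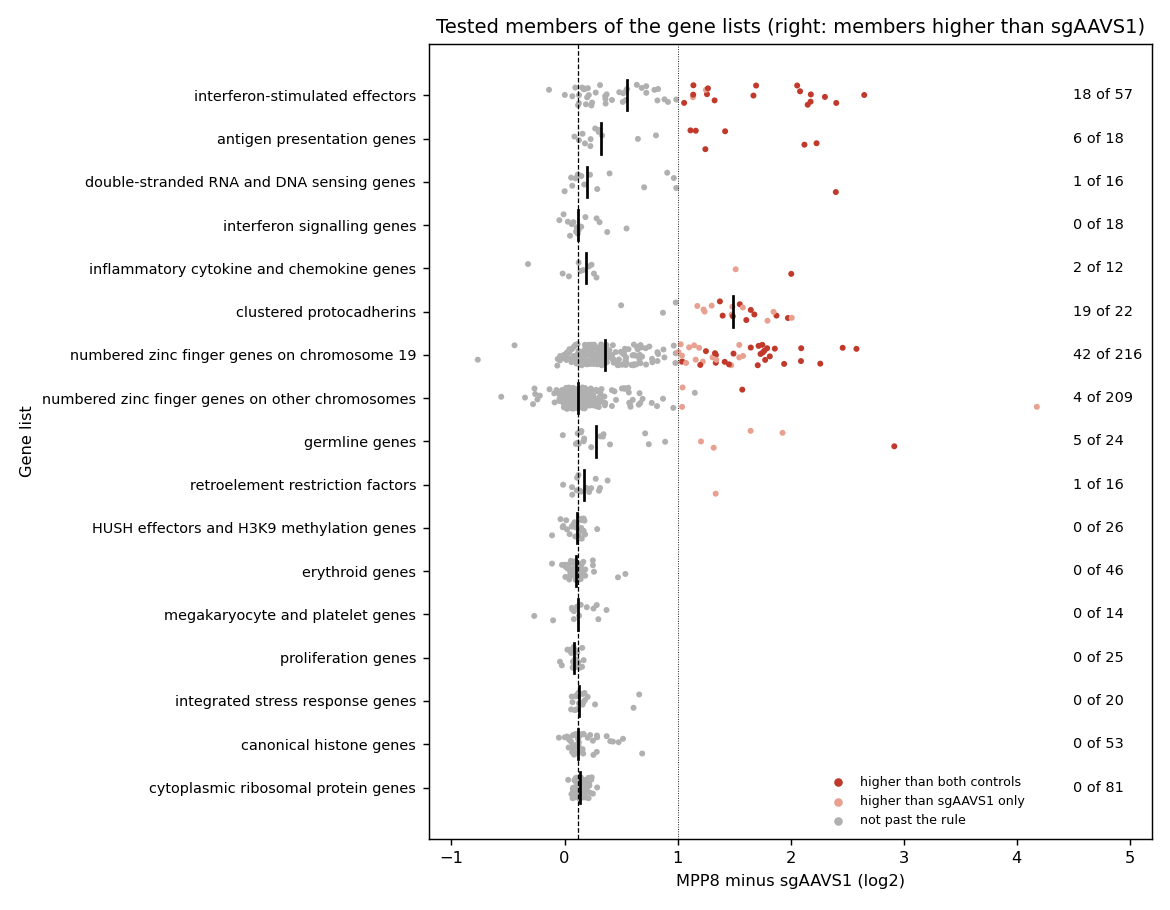
Difference between the MPP8 and sgAAVS1 means (log2) for each tested member of 17 gene lists; the short bar is the list median, the dashed line the median of all tested genes (0.12) and the dotted line a difference of 1. The counts at the right give members higher than sgAAVS1: 18 of 57 for interferon-stimulated effectors, 19 of 22 for clustered protocadherins and 42 of 216 for chromosome 19 zinc finger genes. They were 0 for the signalling, HUSH effector, erythroid, proliferation, stress, histone and ribosomal protein lists, beside 1.63% of all tested genes.

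The gamma cluster of protocadherins, adhesion proteins best known for giving neurons their identity, had the highest share of members called among lists with more than 1 tested member. All 22 tested members were gamma genes, of 53 clustered protocadherins in the table. Against sgAAVS1 19 were higher, beside 1.63% of all genes, and none lower, with a median difference of 1.49 and a range of 0.50 to 2.01. Against untransduced cells the median was 0.50 and 9 were higher, and the same 9 were higher than both controls, beside 0.694% of all genes. Those 9 became 4 with 1 added on the linear scale before the logarithm and 1 at a difference of at least 1.5. Untransduced cells themselves had 8 of the 22 higher than sgAAVS1, so the size of the difference depends on which control is used. PCDHGA6 had 4.55 in MPP8, 4.49 in TASOR, 2.72 in TASOR2, 4.57 in PPHLN1, 2.68 in sgAAVS1 and 3.02 in untransduced cells, which is 1.87 ± 0.31 above sgAAVS1 and 1.53 ± 0.31 above untransduced cells. PCDHGA5 had 4.32 in MPP8, 2.34 in sgAAVS1 and 2.89 in untransduced cells, a difference of 1.98 ± 0.35 from sgAAVS1. PCDHGA4 and PCDHGB2 were 1.68 ± 0.27 and 1.61 ± 0.32 above sgAAVS1. These are members of the front of the cluster, and the last members did not differ from untransduced cells by the rule: PCDHGC5, at the end of the cluster, was 2.01 ± 1.20 above sgAAVS1 and 0.48 ± 1.01 above untransduced cells, with 0.68 in MPP8. Models of the gamma genes have their last exons in common and end together at or near position 141512979 of chromosome 5, so their reads can be divided or counted for several of them, and the 22 members are not independent.

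In the megabase of chromosome 7 from 22 to 23 Mb, 4 of 11 tested genes were higher than both controls, beside 0.694% of all genes. This stretch was chosen after the values were seen. Among the 4 was the inflammatory cytokine gene IL6. IL6 (22725884 to 22732002, plus strand) had 3.30 in MPP8, 3.28 in TASOR, 1.53 in TASOR2, 3.64 in PPHLN1, 1.30 in sgAAVS1 and 1.54 in untransduced cells. The difference was 2.01 ± 0.51 from sgAAVS1 and 1.77 ± 0.52 from untransduced cells. The unnamed transcripts AC002480.3 and AC002480.4, which lie upstream of IL6, were higher than both controls. AC002480.3 had 5.53 in MPP8, 3.50 in sgAAVS1 and 3.95 in untransduced cells (2.03 ± 0.23 above sgAAVS1), and AC002480.4 had 1.90 in MPP8, -1.10 in sgAAVS1 and -1.80 in untransduced cells (3.0 ± 1.06). AC073072.5 was 2.75 ± 1.08 above sgAAVS1, but it overlaps IL6 on the opposite strand, and the sources used here do not say whether counting used strand, so their reads cannot be told apart. Of 12 tested inflammatory genes, IL6 and IL32 were higher than sgAAVS1, beside 1.63% of all genes. IL32 was 0.46 ± 0.86 above untransduced cells and not called there. CXCL8, a neutrophil chemokine gene, had 4.18 in MPP8, 4.20 in sgAAVS1 and 2.30 in untransduced cells.

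Zinc finger genes of chromosome 19, many of which encode KRAB repressors of transposable elements, were a larger list with a lower share called. The share higher than sgAAVS1 was 19.4%, against 31.6% of effectors, 33.3% of antigen presentation genes and 86.4% of protocadherins. Of 216 tested numbered zinc finger genes on this chromosome 42 were higher than sgAAVS1, beside 1.63% of all genes, none was lower, and 26 were higher than both controls, beside 0.694%. The 26 became 16 with 1 added on the linear scale and 9 at a difference of at least 1.5. Their median difference was 0.36 from sgAAVS1 and 0.23 from untransduced cells, and 186 of the 216 lay above the median of all genes. Between the controls, 4 of 212 were higher in untransduced cells. On the other chromosomes 4 of 209 numbered zinc finger genes were higher, 1 of them (ZNF502 on chromosome 3, 1.57 ± 0.54 above sgAAVS1) against both controls, and their median of 0.12 was that of all genes. Chromosome 19 held 8.38% of the genes tested against both controls and 36.7% of the genes higher than both (40 of 109). Reads of these similar genes may be shared between members, so single values are uncertain.

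Within chromosome 19 the calls were unevenly spread. From 38 to 51 Mb, 12 of 29 tested numbered zinc finger genes were higher than sgAAVS1, beside 1.63% of all genes. Higher than both controls were 9, beside 0.694% of all genes, and the 29 had a median of 0.77. From 56 Mb to the end, 11 of 43 were higher and 7 than both, with a median of 0.51. None of 22 from 20 to 24 Mb was called higher, which for so few genes is near the share over all genes. Their median was 0.26 from sgAAVS1 and -0.18 from untransduced cells. Against sgAAVS1, 18 of the 22 lay above the median of all genes. ZNF91, a KRAB repressor of SVA elements in that stretch, had 5.85 in MPP8, 5.53 in sgAAVS1 and 6.01 in untransduced cells. The other stretches lay between, with 5 of 49 higher below 20 Mb, 8 of 29 from 24 to 38 Mb and 6 of 44 from 51 to 56 Mb.

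ZIK1, a KRAB zinc finger gene without a number in its symbol (chromosome 19, 57578456 to 57593777, plus strand), had the largest difference of any named protein-coding gene higher than both controls. Its mean was 4.19 in MPP8, 2.89 in TASOR, 2.88 in TASOR2, 4.61 in PPHLN1, 0.94 in sgAAVS1 and 1.5 in untransduced cells. That is 108 reads per library in MPP8 and 11.9 in sgAAVS1, a difference of 3.25 ± 0.53, and 2.69 ± 0.49 from untransduced cells. It lies in the megabase from 57 to 58 Mb, where 11 of 47 tested genes were higher than both controls, beside 0.694% of all genes. That is the most of any 1 Mb bin (the bins were ranked after the values were seen). The 11 include ZNF606, ZNF773, ZNF256, ZNF549, ZNF418, ZNF671 and ZNF419. ZNF418 had 4.10 in MPP8, 2.36 in sgAAVS1 and 2.51 in untransduced cells (1.73 ± 0.36 above sgAAVS1), and ZNF671 had 4.85 in MPP8, 3.44 in sgAAVS1 and 3.76 in untransduced cells (1.42 ± 0.25). ZNF606 was 2.58 ± 0.98 above sgAAVS1, and 1.22 ± 0.72 above untransduced cells. Genes of other kinds in the same megabase were higher as well, among them AURKC, the Aurora kinase of meiotic cells, with 4.78 in MPP8, 3.53 in sgAAVS1 and 3.59 in untransduced cells (1.25 ± 0.25 above sgAAVS1).

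The block from 43 to 45 Mb, also chosen after the values were seen, held 13 genes higher than both controls. They were 5 of 24 tested genes below 44 Mb and 8 of 32 above, beside 0.694% of all genes. ZNF284 had 3.73 in MPP8, 1.78 in sgAAVS1 and 2.08 in untransduced cells, a difference of 1.94 ± 0.43 from sgAAVS1. ZNF221 and ZNF155, which lie next to each other, were 1.82 ± 0.38 and 1.77 ± 0.35 above it, and ZNF404 1.75 ± 0.48. ZNF233 and ZNF285 were higher on 11.6 and 19.5 reads per library, at 2.46 ± 1.16 and 2.26 ± 0.98. The unnamed transcript AC084219.4, which overlaps the ends of ZNF224 and ZNF225 on the opposite strand, had the largest difference of all genes higher than both controls: its mean was 1.25 in MPP8 and -2.73 in sgAAVS1 (3.98 ± 0.88), and untransduced cells had no reads. Genes in the same block were not all called. ZNF224 itself had 6.05 in MPP8 and 5.23 in sgAAVS1, and ZNF45 had 5.86 in MPP8 and 5.37 in sgAAVS1.

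At 52 Mb, ZNF528 and the antisense transcript ZNF528-AS1, which start back to back within 1 kb, were both higher than both controls. ZNF528-AS1 had 4.48 in MPP8, 2.52 in TASOR, 2.73 in TASOR2, 4.80 in PPHLN1, 1.27 in sgAAVS1 and 1.43 in untransduced cells, which is 3.21 ± 0.47 above sgAAVS1. ZNF528 had 5.49 in MPP8, 4.33 in TASOR, 5.47 in TASOR2, 5.98 in PPHLN1, 3.70 in sgAAVS1 and 4.09 in untransduced cells, a difference of 1.79 ± 0.22 from sgAAVS1. Their neighbours ZNF534 and ZNF578 were 1.86 ± 0.51 and 1.72 ± 0.50 above sgAAVS1. The largest zinc finger difference of the table does not belong to this pattern: ZNF660 on chromosome 3 was 4.18 ± 1.02 above sgAAVS1 but 0.70 ± 0.46 above untransduced cells, and was low in sgAAVS1 (-1.24). The interferon core motif was absent from all 23 promoters of the chromosome 19 zinc finger genes higher than both controls. It was in 2 of 155 of those tested and not higher (1.29%). Over all tested genes with a promoter the share was 3.84%, so its absence from 23 promoters is near that share.

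**Figure D3:**
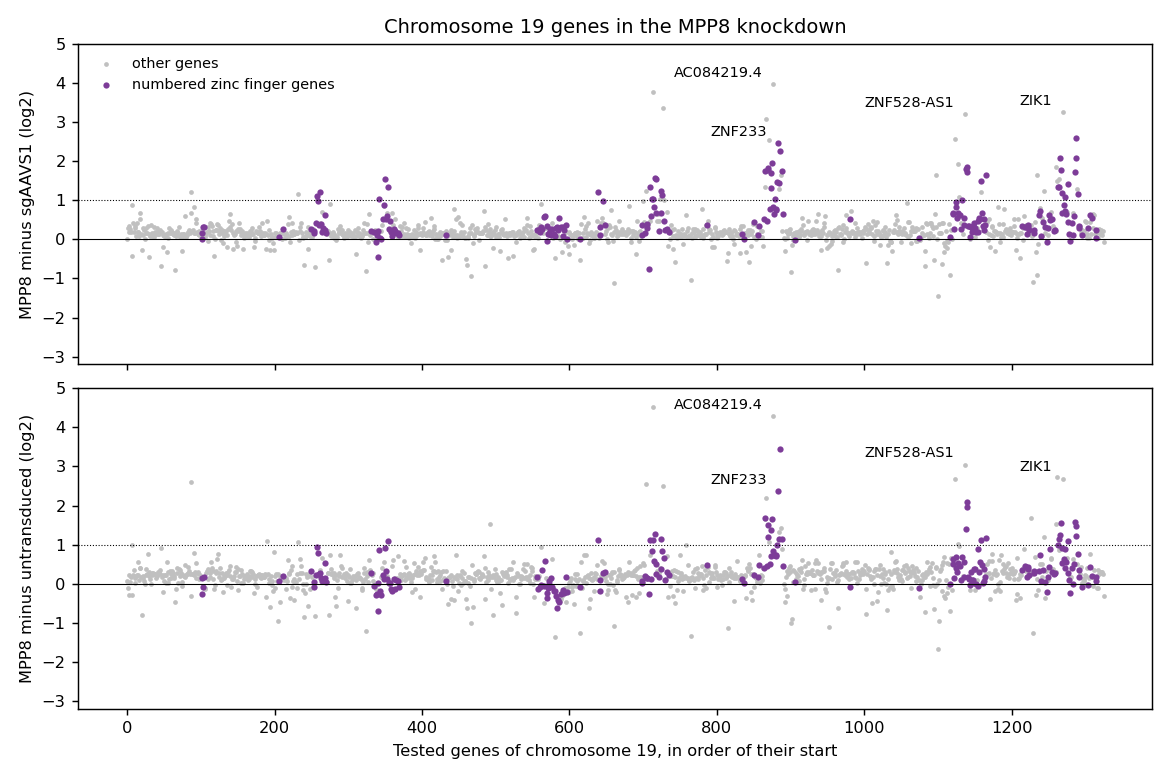
Difference of the MPP8 mean from sgAAVS1 (upper panel) and from untransduced cells (lower panel), log2, for the tested genes of chromosome 19 in order of their start; numbered zinc finger genes are purple, other genes grey, and the dotted line is a difference of 1. Points above the line gather in a few stretches of neighbouring genes, around ZNF233, ZNF528-AS1 and ZIK1, and the same stretches stand out against either control.

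Of 2921 tested gene names with no GENCODE match, 58 were higher than sgAAVS1 (1.99%, beside 1.63% of all genes). Higher than both controls were 22, near the share of 0.694% over all genes. In the other direction, 28 were lower than sgAAVS1 (beside 0.279% of all genes) and 8 lower than both controls (beside 0.115%). CTD-2162K18.4 on chromosome 19 had 1.57 in MPP8, -2.21 in sgAAVS1 and -2.96 in untransduced cells, a difference of 3.77 ± 0.93 from sgAAVS1, and its TASOR mean was -2.37. CTD-3064H18.4 and RP11-15A1.2, also on chromosome 19, were 3.37 ± 1.06 and 3.08 ± 1.08 above sgAAVS1. Of 24 tested germline genes 5 were higher than sgAAVS1 (beside 1.63% of all genes), and 1 of them against both controls (beside 0.694%): RNF113B, a retrogene of the splicing factor gene RNF113A, with 0.57 in MPP8, -2.35 in sgAAVS1 and -0.94 in untransduced cells (2.92 ± 1.0 above sgAAVS1). TAF1L, a testis retrogene of TAF1, was 1.93 ± 0.66 above sgAAVS1 and 0.93 ± 0.55 above untransduced cells, and the imprinted gene NPAP1 was 1.65 ± 0.40 above sgAAVS1 and 0.81 ± 0.35 above untransduced cells. The Tudor-domain genes TDRD6 and TDRD5 were 1.32 ± 0.51 and 1.21 ± 0.70 above sgAAVS1 and were not called against untransduced cells. Between the controls, 3 germline genes were higher in untransduced cells. Protein-coding genes with a single annotated exon were higher than sgAAVS1 in 6 of 231 (2.6%), against 176 of 11917 (1.48%) with more exons. Higher than both controls were 2 and 78 of these, beside 0.694% of all genes. Against untransduced cells, 3 of 239 single-exon genes were higher and 6 lower. Between the controls, 7 of 236 single-exon genes were higher in untransduced cells. Among retroelement restriction factors 1 of 16 was higher than sgAAVS1, SLFN5, which was 0.24 ± 1.22 above untransduced cells.

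Lower genes were few and, apart from MPHOSPH8, scarce. RP1-168P16.2, an unnamed transcript, had -2.14 in MPP8, 0.16 in sgAAVS1 and 0.01 in untransduced cells (-2.31 ± 1.24 from sgAAVS1). AP1S3, a subunit of the clathrin adaptor AP-1, had -1.57 in MPP8, while the other 5 means ranged over 0.16 to 0.83, a difference of -2.06 ± 1.32 from sgAAVS1. BCL2L15, a BCL2 family gene, differed by -1.78 ± 1.35, and the noncoding genes RN7SL832P and LINC00311 by -2.25 ± 1.28 and -1.83 ± 1.33. The chromatin organiser gene SATB1 had no reads in MPP8, 0.49 in sgAAVS1 and -0.23 in untransduced cells, and was not called against untransduced cells, because neither mean of that pair was above 0. None of the 36 gene lists, which leave out the GENCODE classes, had more than 1 member lower than sgAAVS1. At the threshold itself, ZNF75A (1.01 ± 0.15) and CTD-2270L9.4 (1.0 ± 0.77) were just inside on the higher side and RP11-152H18.3 (-1.0 ± 0.94) on the lower. PRSS50, PCLO and RP11-1148L6.9 were just outside, with differences just short of 1 (1.0 when rounded) and intervals that included 0.

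Most of the transcriptome stayed within the rule: 1.63% of tested genes were higher and 0.279% lower than sgAAVS1. None of 26 HUSH effector and H3K9 methylation genes was called, with differences from sgAAVS1 between -0.11 and 0.29. SETDB1 had 7.61 in MPP8 and 7.44 in sgAAVS1, and MORC2 had 7.24 in MPP8 and 7.16 in sgAAVS1. No call was made among 25 proliferation genes (median difference 0.08), 20 integrated stress response genes (0.13), 12 p53 targets (0.15), 13 heat shock genes (0.15), 53 histone genes (0.12) or 81 ribosomal protein genes (0.14). The blood and tissue markers were not called against sgAAVS1 either. Summed over its list, erythroid expression was 5903 RPM in MPP8, 5523 in sgAAVS1 and 5485 in untransduced cells, with none of 46 tested genes called. The myeloid and lymphoid markers summed to 365 in MPP8, 326 in sgAAVS1 and 339 in untransduced cells (10 of 24 above 0 in MPP8), and the markers of non-blood tissues to 374 in MPP8, 323 in sgAAVS1 and 324 in untransduced cells (7 of 20 above 0). The myeloid gene MPO was below 0 in all 3 groups and ALB had no reads in them; the part these small shifts play in the other results was not tested. Of the 10 tested myeloid and lymphoid markers 2 were called higher against untransduced cells, the T cell receptor subunit genes CD3E and CD3G. CD3E was 1.16 ± 1.02 above untransduced cells and 0.88 ± 0.89 above sgAAVS1, and CD3G was 1.07 ± 0.46 above untransduced cells and 0.58 ± 0.40 above sgAAVS1.

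Set directly against the other knockdowns, MPP8 stood apart from TASOR on the interferon and antigen genes and from TASOR2 on the protocadherins. In the direct comparison with TASOR, 125 of 15987 genes were higher in MPP8 (0.782%) and 165 were lower (1.03%). Interferon-stimulated effectors contributed 10 of the higher genes and none of the lower, antigen presentation genes 5 and none, and protocadherins none of either. With TASOR2, 617 of 15933 genes were higher in MPP8 (3.87%) and 242 lower (1.52%), with no effector or antigen presentation gene in either direction and 12 protocadherins higher. SAMD9, for example, was 1.75 ± 0.21 above TASOR and -0.26 ± 0.14 from TASOR2, while PCDHGA6 was 0.07 ± 0.23 from TASOR and 1.83 ± 0.37 above TASOR2. Of 240 numbered zinc finger genes of chromosome 19 in the table, 18 were higher in MPP8 than in TASOR, beside 0.782% of all genes. Against TASOR2 10 of the 240 were higher, which is close to the 3.87% of all genes. None was lower than in either.

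The direct comparison with PPHLN1 gave the fewest calls of the 3. Of 15944 genes 91 were higher in MPP8 (0.571%) and 136 lower (0.853%). No effector, antigen presentation or protocadherin gene was called, which in lists this short is near the shares over all genes. Of 240 numbered zinc finger genes of chromosome 19 in the table, 1 was higher in MPP8. Lower in MPP8 were 8 of the 240, a larger share than the 0.853% of all genes. Of the 109 genes higher than both controls, which were chosen for a high MPP8 mean, the MPP8 mean was above PPHLN1 by the rule in 4 and below it in 1, ZNF578 (3.14 in MPP8 and 4.23 in PPHLN1, -1.09 ± 0.34). The 4 were all scarce: IL10, ERVFRD-1, FAM27C and AC144831.1. IL10, an anti-inflammatory cytokine gene, had 0.52 in MPP8, on 8.48 reads per library, against -1.5 in TASOR, -1.36 in PPHLN1, -1.35 in sgAAVS1 and -0.80 in untransduced cells, and had no reads in TASOR2. ERVFRD-1, the retroviral envelope gene that encodes syncytin-2, had 0.13 in MPP8, -1.86 in PPHLN1, -1.63 in sgAAVS1 and -1.39 in untransduced cells. GPR55, a lipid receptor gene, had 1.72 in MPP8, while the other 5 means ranged over -0.76 to 0.78, and it was 2.19 ± 0.97 above sgAAVS1. The sizes of knockdown differ between groups. MPHOSPH8 had 4.70 in MPP8 and 6.52 in sgAAVS1, and FAM208A had 3.29 in TASOR and 7.22 in sgAAVS1. FAM208B had 6.03 in TASOR2 and 7.45 in sgAAVS1, and PPHLN1 had 5.27 in its own knockdown and 6.57 in sgAAVS1. By these means the drop was largest in TASOR and smallest in PPHLN1. The part these sizes play in the differences between groups was not tested.

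**Figure D4:**
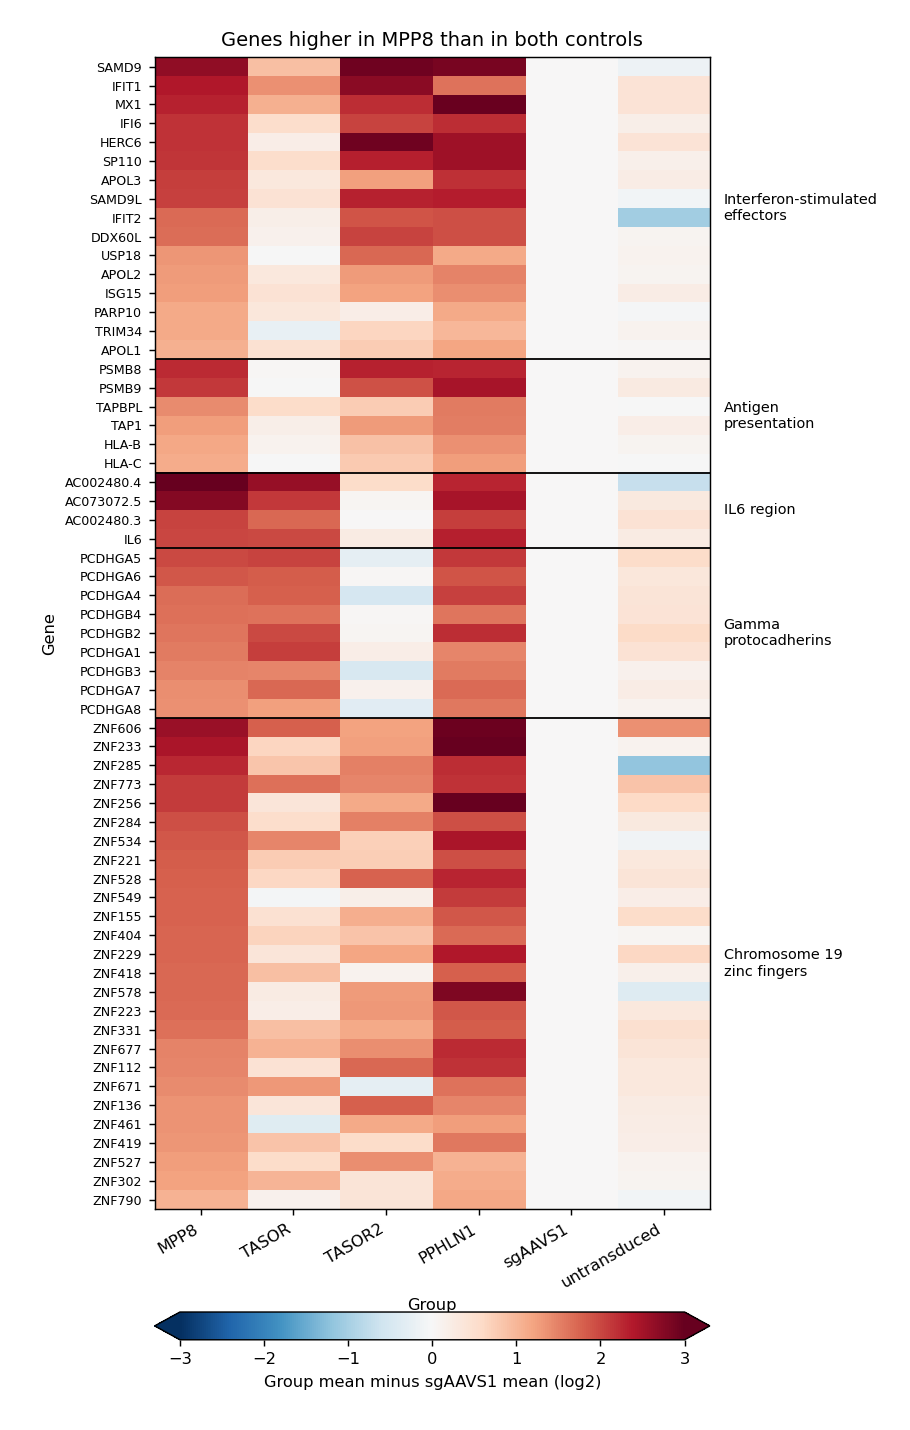
Group mean minus sgAAVS1 mean (log2, colour, limited to -3 and 3) for genes higher in MPP8 than in both controls, by list: 16 interferon-stimulated effectors, 6 antigen presentation genes, 4 transcripts of the IL6 region, 9 gamma protocadherins and 26 chromosome 19 zinc finger genes. In the MPP8 column all rows are above 1 because the genes were chosen so; the TASOR column is pale for the interferon and antigen blocks, the TASOR2 column is pale for the IL6 and protocadherin blocks, and the PPHLN1 column is dark in all blocks.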

How the data were processed

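Total RNA of K562 cells was depleted of ribosomal RNA and made into strand-specific libraries, per the labels' protocols. Reads were handled with cutadapt and Bowtie2 on hg38, per the submitters' processing notes; their versions, the read counter, the annotation and any use of strand are not in the sources used. The deposited table, 1 in all, has 35805 rows and 6 value columns. Per the file headers and values, the untransduced column holds mean log2 values. The other 5 deposited columns are a score, the quotient of each group's mean log2 value and the untransduced mean, and multiplying them gave back group means. Low values were means of whole reads (100% in each column, relative tolerance 0.001, 0 reads set to 0.9), which gave each group's depth. In 102 rows with an untransduced value within 0.05 of 0, the recovered mean is less exact. Of rows that share a symbol 87 were dropped.

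The planned limma fit needs single libraries, so the size rule stood in its place, with Poisson intervals at the recovered depth (Python 3.11.15, pandas 2.3.3, numpy 2.4.6, scipy 1.17.1). The code was also run on data simulated with Poisson counts at these depths. As the simulation holds no spread between guides or replicates, it cannot show how well the intervals fit these data. Gene types and exons came from GENCODE 29 by symbol (12861 of 15782 tested genes matched). Members and lists were chosen with earlier results of these data known. The rule for named genes took the targeted genes, tested genes within 500 kb of MPHOSPH8, the 15 highest and 10 lowest against both controls, up to 6 called and 3 well known uncalled members per list, 5 genes farthest from the other means on each side, and the 3 nearest the threshold on each side; other genes named were chosen after their values were seen. The TASOR2 mean holds 2 libraries where the labels list 3.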

Additional observations from a re-analysis of the deposited data

How the results depend on the processing

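No paired analysis was possible because the table holds group means only, and leaving out a guide or a replicate was not possible for the same reason. The MPHOSPH8 difference lay between -1.97 and -1.79 under the other control, 2 scalings, 1 added on the linear scale and removal of the GC trend. With untransduced cells in place of sgAAVS1, 154 genes were lower, and 9 protocadherins and 26 chromosome 19 zinc finger genes were higher; LINC01257 (-0.17) and SNORD3C (-0.20) changed sign. Counts against both controls use that control already and have no such value. With either mean above 2, 100 genes were higher and 4 lower than sgAAVS1, 61 and 1 than both controls, and 8 protocadherins were higher. With no filter, 109 were lower than sgAAVS1 and 49 than both controls. Setting the median difference to 0 gave 77 lower and 30 lower than both, and quantile normalization 81 lower. At a 1.5-fold threshold, 534 genes were higher and 83 lower, 224 and 33 against both controls, with 28 effectors and 73 chromosome 19 zinc finger genes higher. At a log2 difference of 1.5 these were 127 and 22, with 49 higher than both, and 10 effectors, 2 antigen presentation genes, 10 protocadherins and 20 chromosome 19 zinc finger genes. Adding 1 on the linear scale left 101 higher and 3 lower, 55 and 2 against both, and 9 protocadherins. Against both controls, the 16 effectors, 6 antigen presentation genes, 9 protocadherins and 26 chromosome 19 zinc finger genes became 9, 5, 4 and 16 with 1 added, 10, 2, 1 and 9 at a difference of 1.5, 11, 6, 8 and 17 with either mean above 2, and 25, 7, 10 and 49 at the 1.5-fold threshold. Removing the GC trend kept 103 of the 109 genes higher than both controls among 110. Depth limits scarce genes: at depths of 5925746 to 7407039 reads per library, 158 of the 258 higher genes had a higher mean below 2. The cause of these shifts was not tested.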
